A study of Arabidopsis thaliana with 24 samples.

Results

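The histone genes of Arabidopsis thaliana, among them the genes of the histone variant H2A.Z, were followed by RNA-seq in seedlings of an ino80 mutant and of wild type at a warm and a cooler temperature. The genes were taken from a list of 44 loci by their gene identifiers and not by measured values, though earlier results of these data were known. The list holds 4 loci for H2A.Z, 9 for other H2A, 10 for H2B, 10 for H3, 8 for H4 and 3 for the linker histone H1. Of these, 43 were among the 23390 genes of the 1 h table and 43 among the 23282 genes of the 12 h table, and the H2B gene AT5G02570 was in neither. Values are TPM, the share of transcripts scaled by gene length and library total. The filter on low values was passed by 42 in each table. The H3 gene AT1G13370, at 0 to 0.691 TPM over the 12 libraries of 1 h and 0 to 1.1 TPM over those of 12 h, did not.

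The study compared whole seedlings of the mutant ino80-5, called ino80 here, and of wild type, called Col, both of the Col ecotype. All had been raised at 21 °C in short days for 7 days and were then kept at 27 °C or at 21 °C for 1 h or 12 h. The groups, each of 3 libraries, were therefore ino80 at 27 °C, Col at 27 °C, ino80 at 21 °C and Col at 21 °C, at each of the 2 times, which gives 24 libraries in 8 groups. The title of the series ties the INO80 complex to growth in warmth and to the removal of H2A.Z. The mutant was represented by 1 allele, and the labels do not say whether libraries of a group came from separate cultures, so p-values measure only the spread between these libraries, which may be technical.

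Histones package DNA: H2A, H2B, H3 and H4 form the nucleosome core, and H1 binds the linker DNA between cores. The replicative forms, here canonical H2A and H2B, H3.1 and H4, are made mainly in S phase, when new chromatin is built behind the replication fork. Replacement variants such as H2A.Z and H3.3 are made and deposited outside S phase as well. In plants H2A.Z is placed by the SWR1 complex, its removal has been assigned to INO80 among others, and it is best known in Arabidopsis for its link to responses to warmth.

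Plant histone promoters are known for short shared motifs, and promoters are printed here for 4 genes of different classes that were called lower both in ino80 after 1 h and in warmth after 12 h and for HTA9 and HTA11, the H2A.Z genes with the highest levels, whose changes parted. Each is the 250 bases before the annotated start on the gene's own strand, from RefSeq, assembly TAIR10.1, and capitals mark either the octamer CGCGGATC or the hexamer ACGTCA. The H3.1 gene AT1G09200 (chr1:2972335-2972584, minus strand) has 2 octamers, 90 and 19 bases before its start. The H4 gene AT5G59690 (chr5:24051224-24051473, plus strand) and the H2A.W gene HTA6 (chr5:24116221-24116470, minus strand) have an octamer 71 and 116 bases before the start. The H2B gene HTB1 (chr1:2412688-2412937, plus strand) has a hexamer 31 bases before it. HTA9 (chr1:19644986-19645235, plus strand) and HTA11 (chr3:20195890-20196139, plus strand) have neither. HTA11 was itself called lower both in ino80 after 1 h and in warmth after 12 h. So were the H3.1 gene AT5G10390 and the H4 gene AT5G59970, which are not printed and have neither motif. Whether a motif goes with being lower was not tested.
AT1G09200: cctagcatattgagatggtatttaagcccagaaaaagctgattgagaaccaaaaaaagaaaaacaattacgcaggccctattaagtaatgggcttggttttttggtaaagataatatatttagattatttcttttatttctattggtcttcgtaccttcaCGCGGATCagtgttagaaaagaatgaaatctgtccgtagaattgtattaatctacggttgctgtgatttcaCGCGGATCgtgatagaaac
AT5G59690: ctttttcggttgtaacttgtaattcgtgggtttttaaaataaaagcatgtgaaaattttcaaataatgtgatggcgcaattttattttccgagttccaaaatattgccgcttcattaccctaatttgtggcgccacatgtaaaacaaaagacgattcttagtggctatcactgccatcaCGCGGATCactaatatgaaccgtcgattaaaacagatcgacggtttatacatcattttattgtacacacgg
HTA6: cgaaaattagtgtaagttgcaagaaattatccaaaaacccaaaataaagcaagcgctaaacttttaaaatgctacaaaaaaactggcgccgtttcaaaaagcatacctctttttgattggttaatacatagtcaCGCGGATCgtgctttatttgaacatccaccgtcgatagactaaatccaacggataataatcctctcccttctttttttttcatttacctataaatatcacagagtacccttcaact
HTB1: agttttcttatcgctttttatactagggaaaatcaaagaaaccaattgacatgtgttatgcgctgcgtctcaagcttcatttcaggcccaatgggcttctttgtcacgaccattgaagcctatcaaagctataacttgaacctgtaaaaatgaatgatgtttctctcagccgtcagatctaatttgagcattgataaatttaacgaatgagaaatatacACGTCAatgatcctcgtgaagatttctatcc
HTA9: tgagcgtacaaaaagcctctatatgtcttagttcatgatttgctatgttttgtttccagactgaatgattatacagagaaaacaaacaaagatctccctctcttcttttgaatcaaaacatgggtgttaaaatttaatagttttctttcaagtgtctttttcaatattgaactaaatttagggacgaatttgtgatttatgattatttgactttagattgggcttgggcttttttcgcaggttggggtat
HTA11: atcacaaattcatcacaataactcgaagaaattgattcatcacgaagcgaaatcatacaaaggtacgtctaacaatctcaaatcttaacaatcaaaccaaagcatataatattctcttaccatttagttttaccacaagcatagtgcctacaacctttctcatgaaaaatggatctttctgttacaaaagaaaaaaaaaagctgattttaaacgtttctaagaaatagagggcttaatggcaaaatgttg

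Over the window of 250 bases before to 50 after the start, read on both strands, 10 of the 44 histone loci (22.7%) had the octamer, against 40 of 27443 nuclear protein-coding genes (0.146%). The carriers were HTA10, HTA13, HTA6, 3 of 5 genes for H3.1, 1 of 3 for H3.3, 2 of 8 for H4 and 1 of 3 for H1. The hexamer stood in 13 of 44 loci (29.5%), of which 9 were among the 10 H2B loci, against 2522 of 27443 genes (9.19%). Of 2 motifs of the E2F type, TTTGGCGC was found in 2 H4 genes (4.55% of the loci, against 0.434% of genes) and TTTCCCGC in no histone locus (0.798% of genes). None of the 4 H2A.Z genes had any of these motifs. A match describes letters in this window, not a working site.

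Correlations between libraries of a group on the log2 scale were 0.9928 to 0.9965 at 1 h and 0.9903 to 0.9952 at 12 h. INO80, the catalytic subunit of the remodeller and the check of the labels, had 13.1, 14.9 and 12.6 TPM in ino80, against 17, 20.3 and 18.7 TPM in Col at 21 °C after 1 h, and 10.9, 11.6 and 11.4 TPM in ino80, against 16.7, 16.5 and 14.4 TPM in Col at 27 °C. At 12 h it had 17.5, 16.4 and 16.6 TPM in ino80, against 22.5, 19.97 and 22.3 TPM in Col at 21 °C, and 32.1, 22.8 and 31.2 TPM in ino80, against 36.96, 45.5 and 47.9 TPM in Col at 27 °C. Transcripts were present in all libraries and lower in ino80, with log2 fold changes of -0.44 ± 0.08, -0.45 ± 0.08, -0.34 ± 0.12 and -0.59 ± 0.12 (SE), of which the call at 21 °C and 12 h (adjusted p = 0.046) is lost without single libraries (adjusted p up to 0.13). Each library's TPM sums to 1000000, so the tables hold no depth, and the 1 h and 12 h tables were analysed apart. Fold changes throughout are of TPM + 1, which understates changes of low genes, and a gene was called at an adjusted p under 0.05 by limma over all tested genes, 19190 at 1 h and 19578 at 12 h. In whole seedlings fewer cells of a type and less RNA per cell cannot be told apart.

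The levels of the histone genes, in TPM and so per length, spanned a wide range. At 1 h the H3.3 gene AT4G40030 stood highest, at 310 to 431 TPM over the 12 libraries, followed by the H3.3 gene AT4G40040 at 223 to 277 TPM and the H2B gene HTB4 at 184 to 292 TPM. At 12 h AT4G40040 stood highest, at 503 to 739 TPM, ahead of the H2B gene HTB9 at 394 to 487 TPM. The highest gene's range did not meet that of the next in either table, while at 1 h the ranges of AT4G40040 and HTB4 overlapped. At 12 h the H2B gene HTB2, at 282 to 533 TPM, did overlap AT4G40040. In Col at 21 °C the mean of HTB2 was 522 TPM, above the 511 TPM of AT4G40040. HTR12, which encodes the centromeric H3, had the lowest tested level at both times, at 1.23 to 2.78 TPM at 1 h and 2.13 to 4.65 TPM at 12 h. Among the H2A.Z genes HTA9 exceeded HTA11, HTA11 exceeded HTA8 and HTA8 exceeded HTA4 in 12 of 12 libraries at 1 h and in 11 of 12 at 12 h, the exception being replicate 1 of ino80 at 27 °C, where HTA4 exceeded HTA8.

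At 1 h most histone genes were lower in ino80 than in Col at both temperatures. At 21 °C 29 of 42 tested histone genes were lower in ino80, where 20.5% of all tested genes were lower, and 1 was higher, where 15.4% of all were higher. The median log2 fold change of the 42 was -0.40, and that of all tested genes -0.03. At 27 °C 28 were lower and 2 higher, against 20.4% and 17.1% of all tested genes, and the median was -0.30 against -0.01. The lower genes included 3 of 4 for H2A.Z, 5 of 9 for other H2A, 8 of 9 tested for H2B, 5 of 9 tested for H3, 6 of 8 for H4 and 2 of 3 for H1 at 21 °C. At 27 °C they were 2, 5, 9, 4, 6 and 2 of the same classes. Left out in turn, no library took away the calls of 24 of the 29 lower genes at 21 °C and 20 of the 28 at 27 °C.

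HTA11 changed most among the genes for H2A.Z. At 21 °C and 1 h HTA11 had 15.7, 12.2 and 14.5 TPM in ino80, against 24.03, 20.7 and 22.8 TPM in Col. At 27 °C it had 14.97, 12.5 and 12.2 TPM in ino80, against 25.7, 27.4 and 22.3 TPM in Col. No ino80 library reached a Col library at either temperature, and the log2 fold changes were -0.64 ± 0.10 (SE, adjusted p = 0.00015) and -0.88 ± 0.10 (adjusted p = 7.9e-06). HTA8, the H2A.Z gene next in level, had 7.02, 6.38 and 5.19 TPM in ino80, against 8.59, 8.399 and 8.96 TPM in Col at 21 °C, and 7.63, 5.44 and 6.15 TPM in ino80, against 7.8, 8.41 and 8.36 TPM in Col at 27 °C. The ino80 libraries were the lower ones again, with log2 fold changes of -0.43 ± 0.11 (adjusted p = 0.0073) and -0.32 ± 0.11 (adjusted p = 0.035). The call of HTA8 at 27 °C ended with the other scaling (adjusted p = 0.055), with no filter on low TPM (0.056) and without Col replicate 1 (0.052), 2 (0.095) or 3 (0.088) or ino80 replicate 2 (0.16) or 3 (0.094).

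HTA9, the H2A.Z gene with the highest level, had 126, 125 and 118 TPM in ino80, against 137, 145 and 137 TPM in Col at 21 °C after 1 h. At 27 °C HTA9 had 118, 113 and 122 TPM in ino80, against 127, 123 and 123 TPM in Col. It was lower in ino80 at 21 °C, where the libraries of the groups did not overlap, with a log2 fold change of -0.18 ± 0.05 (SE, adjusted p = 0.0055), and at 27 °C the value was -0.08 ± 0.05 (adjusted p = 0.17). HTA4, a weakly expressed H2A.Z gene that overlaps another annotated gene, had 2.74, 3.22 and 1.67 TPM in ino80, against 3.53, 3.202 and 3.67 TPM in Col at 21 °C, and 4.38, 4.33 and 3.62 TPM in ino80, against 5.27, 4.74 and 4.47 TPM in Col at 27 °C. Its log2 fold changes of -0.36 ± 0.14 and -0.19 ± 0.14 did not pass the test (adjusted p = 0.063 and 0.32).

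**Figure D1:**
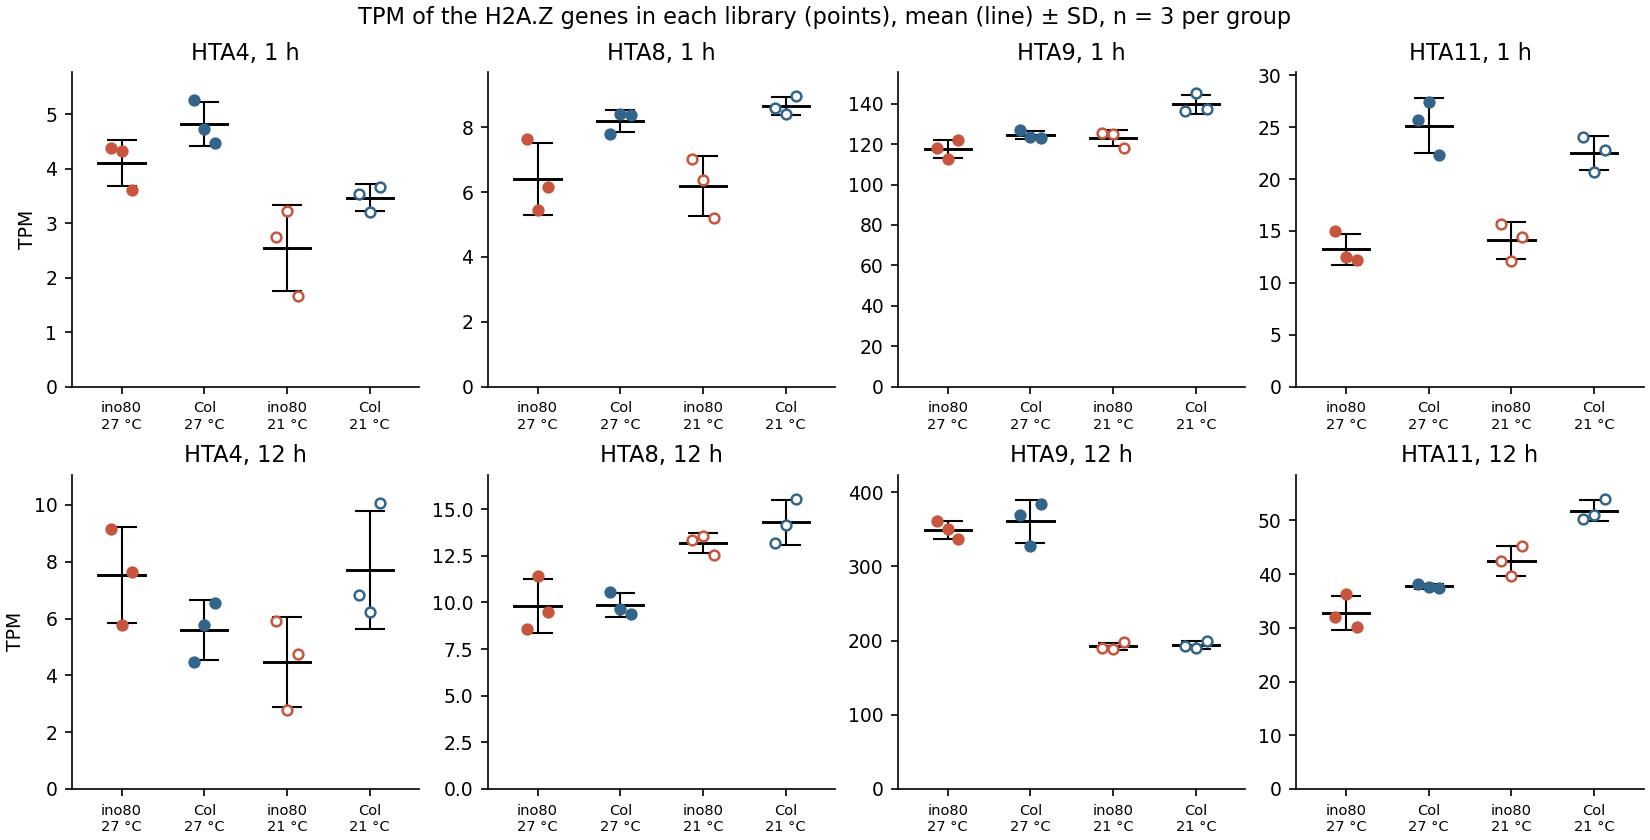
TPM of the 4 H2A.Z genes in each library at 1 h (top) and 12 h (bottom), with 3 libraries per group as points, their mean as a line and their SD as the bar; the scale differs between panels and starts at 0. At 1 h the ino80 libraries of HTA11 lie below every Col library at both temperatures, and at 12 h the 27 °C libraries of HTA9 lie above every 21 °C library in both genotypes.

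Among the other H2A genes, HTA13 and HTA10, both canonical, and HTA6, which encodes H2A.W of heterochromatin, led the calls at 1 h. At 21 °C HTA13 had 27.7, 27.8 and 24.9 TPM in ino80, against 45.2, 45.3 and 45.2 TPM in Col. HTA10 had 141, 129 and 141 TPM in ino80, against 196, 196 and 193 TPM in Col. HTA6 had 70.9, 62.4 and 72.8 TPM in ino80, against 118, 103 and 113 TPM in Col. Every ino80 library of these genes was below every Col library, with log2 fold changes of -0.74 ± 0.06 for HTA13, -0.51 ± 0.05 for HTA10 and -0.69 ± 0.09 for HTA6 (SE), with adjusted p-values of at most 2.4e-05. At 27 °C HTA13 had 34.2, 32.6 and 29.02 TPM in ino80, against 53.3, 57.1 and 54.4 TPM in Col. HTA10 then had 184, 194 and 199 TPM in ino80, against 244, 262 and 258 TPM in Col. HTA6 then had 82.4, 75.7 and 65.5 TPM in ino80, against 114, 123 and 99.9 TPM in Col. The groups stayed apart in each case, with log2 fold changes of -0.77 ± 0.06, -0.40 ± 0.05 and -0.58 ± 0.09 in that order (adjusted p at most 0.0001). The other H2A.W genes, HTA7 and HTA12, were not lower: at 21 °C their log2 fold changes were 0.02 ± 0.06 and 0.16 ± 0.08 (adjusted p = 0.88 and 0.13), values chosen for mention after they were seen.

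The H2B gene AT2G28720 showed the largest change of all 42 tested histone genes at both temperatures. It had 28.4, 24.8 and 32.1 TPM in ino80, against 55.9, 65.6 and 63.8 TPM in Col at 21 °C. HTB1 had 83.2, 78.01 and 86.4 TPM in ino80, against 120.3, 116 and 120.2 TPM in Col. HTB2 had 107, 110.2 and 117 TPM in ino80, against 164, 175 and 173 TPM in Col. All ino80 libraries lay below all Col libraries, with log2 fold changes of -1.10 ± 0.09 for AT2G28720, -0.52 ± 0.06 for HTB1 and -0.61 ± 0.07 for HTB2 (SE, adjusted p at most 6.1e-06). At 27 °C AT2G28720 had 14.1, 16.2 and 14.7 TPM in ino80, against 31.3, 30.6 and 34.4 TPM in Col. For HTB1 the values were 98.7, 101 and 89.2 TPM in ino80, against 132, 133 and 124 TPM in Col. For HTB2 they were 110.2, 105 and 92.5 TPM in ino80, against 183, 196 and 165 TPM in Col. None of these groups overlapped, and the log2 fold changes were -1.05 ± 0.09, -0.42 ± 0.06 and -0.82 ± 0.07 in that order (adjusted p at most 2.5e-05).

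Within H3, 4 of the 5 replicative H3.1 genes were lower in ino80 at each temperature, and no H3.3 gene was. They were AT1G09200, AT5G10390 and AT5G10400 at both, with AT3G27360 at 21 °C and AT5G65360 at 27 °C. The calls of AT3G27360 and AT5G65360 were lost without single libraries (adjusted p up to 0.13 and 0.056). AT5G65360, the most abundant H3.1 gene, was not called at 21 °C, with means of 175 TPM in ino80 and 181 TPM in Col. At 21 °C the H3.1 gene AT1G09200, whose promoter has 2 octamers, had 76.9, 93.3 and 85.99 TPM in ino80, against 132, 133 and 133 TPM in Col. AT5G10390 had 25.5, 27.8 and 29.8 TPM in ino80, against 56.5, 47.8 and 53.4 TPM in Col. AT5G10400 had 48.2, 49.9 and 47.3 TPM in ino80, against 71.9, 66.1 and 71.5 TPM in Col. The ino80 libraries of these H3.1 genes stood below those of Col without overlap, with log2 fold changes of -0.64 ± 0.06 for AT1G09200, -0.90 ± 0.10 for AT5G10390 and -0.52 ± 0.10 for AT5G10400 (adjusted p at most 0.00081). At 27 °C AT1G09200 had 82.4, 84.4 and 77.2 TPM in ino80, against 144, 139 and 134 TPM in Col. AT5G10390 then had 24.3, 18.9 and 17.9 TPM in ino80, against 39.8, 43.8 and 41.4 TPM in Col. AT5G10400 then had 57.7, 56.9 and 41.2 TPM in ino80, against 91.8, 87.1 and 77.6 TPM in Col. The log2 fold changes were -0.76 ± 0.06, -1.01 ± 0.10 and -0.72 ± 0.10 in that order, again with no overlap (adjusted p at most 4.1e-05). Of the 3 H3.3 genes, AT4G40040 was higher at 27 °C at a log2 fold change of 0.11 ± 0.04 (adjusted p = 0.036), a call that was lost without single libraries (adjusted p up to 0.11). The centromeric HTR12 had 1.32, 1.504 and 1.23 TPM in ino80, against 2.64, 2.18 and 2.74 TPM in Col at 21 °C, and 2.02, 1.78 and 1.95 TPM in ino80, against 2.48, 2.78 and 2.32 TPM in Col at 27 °C. It was lower in ino80 at 21 °C without overlap, at a log2 fold change of -0.58 ± 0.11 (adjusted p = 0.00088), while the 27 °C value of -0.27 ± 0.11 did not pass (adjusted p = 0.071).

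For H4, AT5G59970 had 54.2, 44.9 and 52.1 TPM in ino80, against 88.4, 88.8 and 90.02 TPM in Col at 21 °C. AT5G59690 had 109.7, 97.3 and 112 TPM in ino80, against 169.6, 156 and 159 TPM in Col. AT3G46320 had 30.8, 21.8 and 27.99 TPM in ino80, against 39.98, 51.5 and 49 TPM in Col. All were lower in ino80 with no overlap, with log2 fold changes of -0.81 ± 0.06 for AT5G59970, -0.60 ± 0.07 for AT5G59690 and -0.79 ± 0.12 for AT3G46320 (adjusted p at most 7.9e-05). At 27 °C AT5G59970 had 47.3, 46.98 and 46.2 TPM in ino80, against 81.2, 80.2 and 75.4 TPM in Col. AT5G59690 then had 129, 110.3 and 112 TPM in ino80, against 158, 167 and 172 TPM in Col. The H4 gene AT3G45930 had 41.8, 44.4 and 38.2 TPM in ino80, against 65.6, 61.3 and 60.9 TPM in Col. These were also lower without overlap, with log2 fold changes of -0.74 ± 0.06, -0.50 ± 0.07 and -0.58 ± 0.09 in that order (adjusted p at most 0.00016). In 6 of the 8 H4 genes, these 4 included, over 5% of the 50-base windows of the exons recur elsewhere in the genome (6.94% to 30.8%), so how reads were shared between H4 copies is uncertain.

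The linker histone genes split. HIS1-3, which encodes a small H1 variant known to rise under drought and low light, had 27.7, 24.4 and 32.3 TPM in ino80, against 14.1, 19.1 and 19.3 TPM in Col at 21 °C. At 27 °C HIS1-3 had 33.4, 33.9 and 34.6 TPM in ino80, against 16.5, 15.9 and 17.5 TPM in Col. It was higher in every ino80 library than in any Col library, with log2 fold changes of 0.66 ± 0.11 (adjusted p = 0.00019) and 0.99 ± 0.11 (adjusted p = 4e-06). The canonical H1 gene AT2G30620 went the other way, with 89.9, 87.1 and 87.9 TPM in ino80, against 146, 122 and 140.1 TPM in Col at 21 °C, and 80.1, 82.3 and 75.1 TPM in ino80, against 94.7, 96.02 and 94.2 TPM in Col at 27 °C. Its libraries did not overlap between genotypes, and the log2 fold changes were -0.61 ± 0.06 and -0.26 ± 0.06 (adjusted p = 1.6e-06 and 0.0032). The remaining H1 gene, AT1G06760, was also called lower at both temperatures. Those calls were lost with rescaling (adjusted p = 0.091 at 21 °C and 0.065 at 27 °C) and without single libraries (up to 0.092 and 0.052).

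Most genes of a list for DNA replication were lower in ino80 beside the histone genes at 1 h. Of 18 S phase and replication genes, 13 were lower and 1 higher at 21 °C (median log2 fold change -0.36), and 15 were lower at 27 °C (median -0.61). TSO2, a ribonucleotide reductase subunit, had log2 fold changes of -0.74 ± 0.08 at 21 °C and -0.91 ± 0.08 at 27 °C (SE). For MCM3, part of the replicative helicase, they were -0.44 ± 0.08 and -0.80 ± 0.08, and PCNA1, the sliding clamp, had -0.57 ± 0.10 at 21 °C. Of 15 genes of G2 and M phase 5 were lower at 21 °C and 10 at 27 °C, among them the mitotic cyclin gene CYCB1;2 with log2 fold changes of -0.35 ± 0.08 and -0.68 ± 0.08. Of 9 regulators of the step into S phase 2 were lower at 21 °C, and 4 lower and 1 higher at 27 °C. E2FC, a repressor of that step, had log2 fold changes of -0.89 ± 0.11 and -1.04 ± 0.11. Of 13 histone chaperone genes 3 were lower and 2 higher at 21 °C, shares near the 20.5% and 15.4% of all tested genes, and 4 lower and 2 higher at 27 °C, against 20.4% and 17.1%. FAS1, of the assembly factor CAF-1 that works with H3.1, had a log2 fold change of -0.75 ± 0.11 at 27 °C, and SSRP1, of the FACT complex, was higher with log2 fold changes of 0.34 ± 0.05 and 0.33 ± 0.05. Of 5 SWR1 subunit genes SWC2 was higher at 21 °C (0.39 ± 0.08) and PIE1, the ATPase, lower at 27 °C (-0.34 ± 0.09).

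Markers of organs also differed between the genotypes at 1 h. The summed TPM of 3 seed storage and oil body genes, all detected in every library, was 58.7 to 66.6 in ino80 and 8.16 to 13.8 in Col at 21 °C. At 27 °C it was 73.4 to 76.95 in ino80 and 8.22 to 15.5 in Col, and all 3 genes passed the test at both temperatures. For 4 root markers, all detected in every library, the sums were 2136 to 2243 in ino80 and 1670 to 1754 in Col at 21 °C, and 1825 to 1921 in ino80 and 1477 to 1613 in Col at 27 °C. PYK10 made up most of each sum, and single root markers went both ways, with 2 of 4 higher at 21 °C, and 1 higher and 2 lower at 27 °C. Of 4 markers of green tissue 2 were higher and 1 lower in ino80 at each temperature. Of 3 flower markers, AP3 and AG were at 0 in some libraries and at most 0.216 TPM in the rest. The other, PI, was higher in ino80, with 2.13, 2.39 and 1.74 TPM in ino80, against 0.303, 0.5495 and 0.479 TPM in Col at 21 °C, and 1.27, 1.303 and 1.3 TPM in ino80, against 0.377, 0.517 and 0.508 TPM in Col at 27 °C, at log2 fold changes of 1.09 ± 0.13 and 0.64 ± 0.13 (adjusted p = 1.1e-05 and 0.0012). The part of organ makeup and of dividing cells in the histone differences was not tested.

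**Figure D2:**
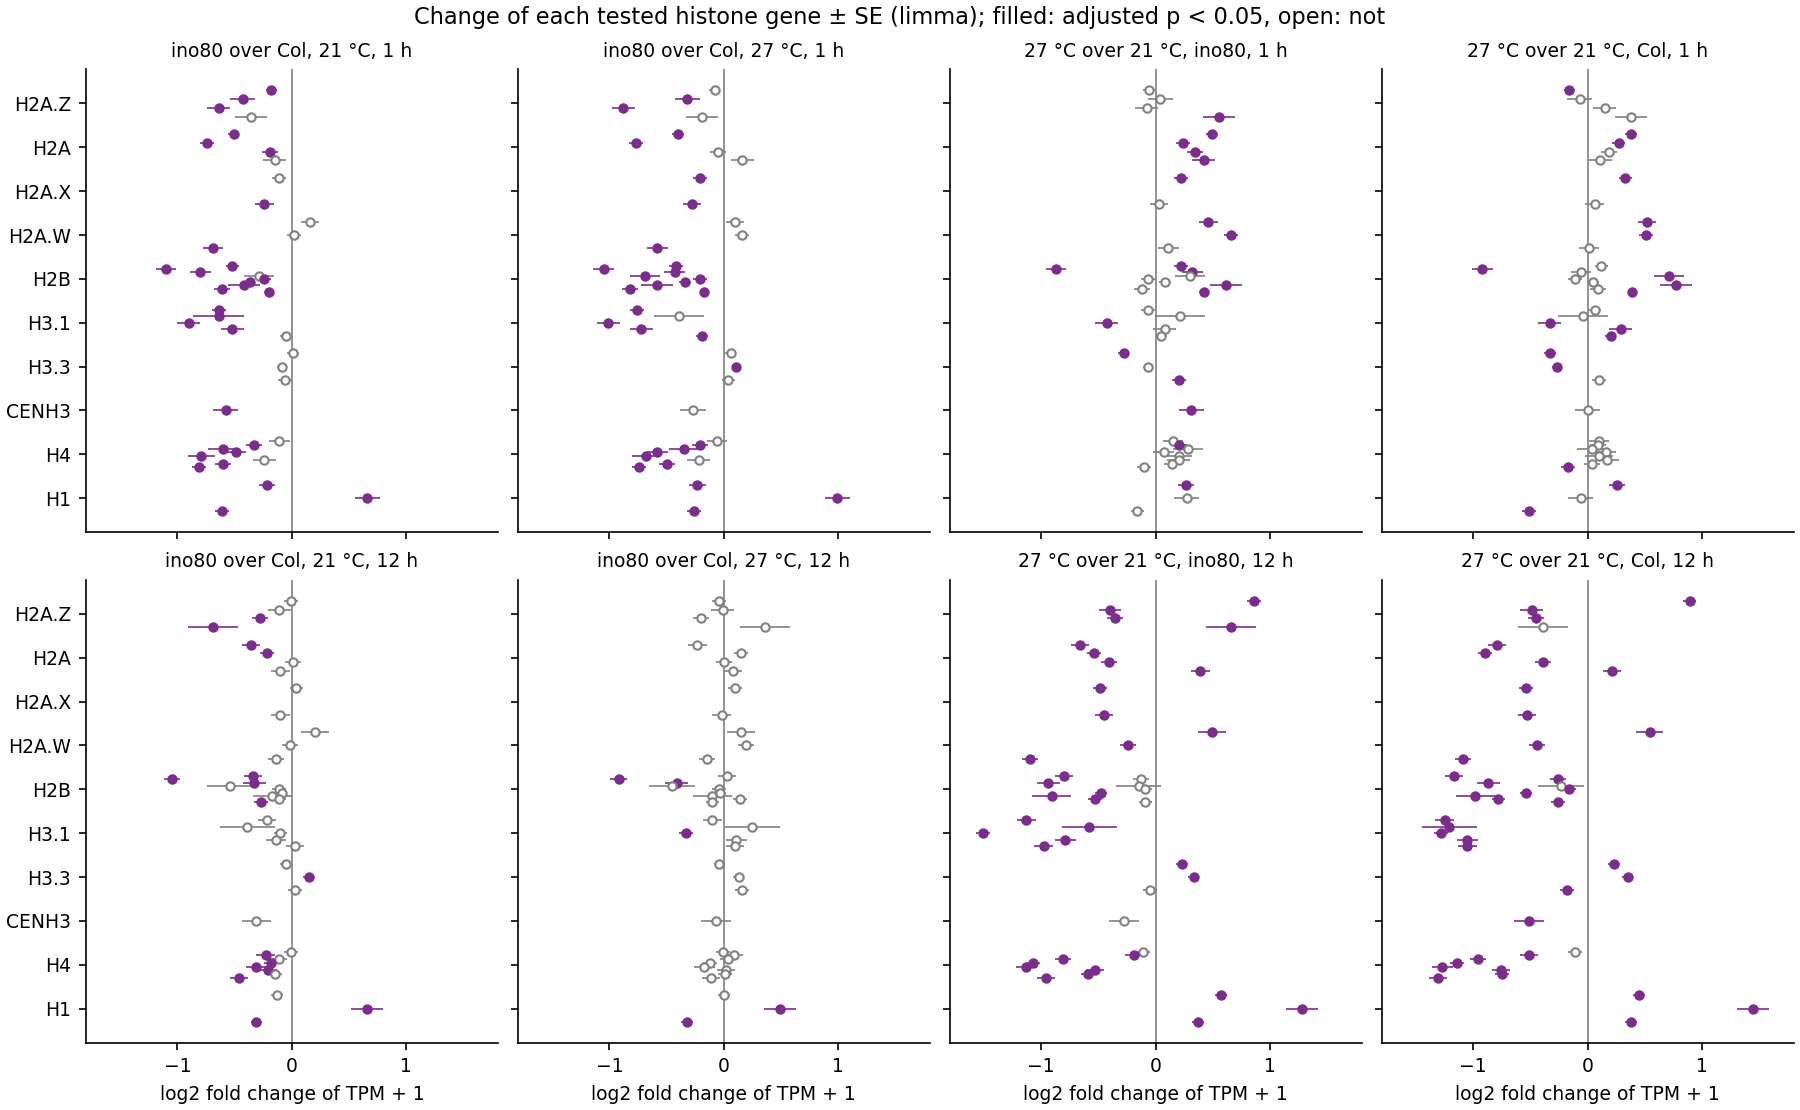
Log2 fold change of TPM + 1 (horizontal axis) with its SE for each of the 42 tested histone genes, grouped by histone class (vertical axis), for the 4 contrasts at 1 h (top) and 12 h (bottom); filled points passed an adjusted p of 0.05. Filled points lie mostly left of 0 for ino80 over Col at 1 h and for 27 °C over 21 °C at 12 h. To the right of 0 lie HIS1-3 and, at 27 °C, AT4G40040 for ino80 over Col at 1 h, and 9 genes in ino80 and 8 in Col, HTA9 and the 3 H1 genes among them, for warmth at 12 h.

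After 12 h fewer histone genes passed the test between genotypes. At 21 °C 14 of 42 were lower in ino80, where 12.1% of all tested genes were lower, and 2 were higher, where 16.7% of all were. The medians were -0.14 for the histone genes and 0.03 for all tested genes. The count of lower genes fell to 8 without Col replicate 2, without Col replicate 3 or without ino80 replicate 2, and to 9 without ino80 replicate 3, and 6 of the 14 kept the call without each library. At 27 °C 4 were lower and 1 higher, against 11.5% and 18.7% of all tested genes, with medians of -0.01 and 0.05. There the count of lower genes was 7 without Col replicate 3, and the count of higher genes 0 without Col replicate 2 or ino80 replicate 2, 2 without Col replicate 1 or 3 and 4 without ino80 replicate 1. Over all tested genes 3660 were higher and 2256 lower at 27 °C as deposited, and 2704 and 3238 after rescaling by the median of ratios, under which 1 histone gene was higher and 6 lower.

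AT2G28720 (H2B) stayed lower in ino80 after 12 h. It had 38.2, 42.3 and 39.96 TPM in ino80, against 81.1, 87.7 and 83.9 TPM in Col at 21 °C. At 27 °C it had 35.6, 38.1 and 36.2 TPM in ino80, against 79.1, 65.4 and 66.4 TPM in Col. No ino80 library came near a Col library, and the log2 fold changes were -1.05 ± 0.07 and -0.92 ± 0.07 (adjusted p = 2.5e-07 and 7.3e-07). Other H2B calls that held at 21 °C were HTB4, with 316, 304 and 333 TPM in ino80, against 377, 385 and 388 TPM in Col, and HTB1, with 145, 153 and 148 TPM in ino80, against 180.2, 181 and 207 TPM in Col. Both were below Col in every ino80 library, with log2 fold changes of -0.27 ± 0.06 for HTB4 and -0.34 ± 0.08 for HTB1 (adjusted p = 0.0021 and 0.0041). At 27 °C the H2B gene AT2G37470 had 30.4, 36.01 and 29.8 TPM in ino80, against 47.95, 37.1 and 44.2 TPM in Col, lower without overlap at a log2 fold change of -0.41 ± 0.10 (adjusted p = 0.0069).

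Of the other core classes, HTA10 had 199, 213 and 209 TPM in ino80, against 264, 258 and 273 TPM in Col at 21 °C and 12 h. The H4 gene AT5G59970 had 121, 118 and 117 TPM in ino80, against 155, 167 and 169 TPM in Col. They were lower in ino80 with no overlap, at a log2 fold change of -0.36 ± 0.08 (adjusted p = 0.0059) for HTA10 and -0.46 ± 0.08 (adjusted p = 0.00062) for AT5G59970. At 27 °C the H3.1 gene AT5G10390 had 23.3, 25.8 and 25.6 TPM in ino80, against 32.7, 31.3 and 30.8 TPM in Col. Its groups were apart, with a log2 fold change of -0.33 ± 0.06 (adjusted p = 0.0014). HTR12 had 2.79, 2.95 and 3.84 TPM in ino80, against 3.86, 4.003 and 4.65 TPM in Col at 21 °C, and 2.42, 2.79 and 2.13 TPM in ino80, against 2.49, 2.71 and 2.64 TPM in Col at 27 °C. Its groups were apart at 21 °C and overlapped at 27 °C, with values of -0.31 ± 0.13 and -0.07 ± 0.13 that did not pass (adjusted p = 0.1 and 0.73).

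Of the H2A.Z genes, HTA11 had 42.5, 39.6 and 45.2 TPM in ino80, against 50.3, 51.1 and 54.02 TPM in Col at 21 °C after 12 h. At 27 °C it had 31.9, 36.4 and 30.1 TPM in ino80, against 38.2, 37.5 and 37.4 TPM in Col. The ino80 libraries were lower at both temperatures. The log2 fold change of -0.28 ± 0.07 at 21 °C was called (adjusted p = 0.01, but 0.052 without ino80 replicate 2), and -0.20 ± 0.07 at 27 °C was not (adjusted p = 0.055, and 0.013 with the other scaling). HTA9 had 189.9, 189 and 198 TPM in ino80, against 192, 189.7 and 199.6 TPM in Col at 21 °C, and 362, 349.9 and 337 TPM in ino80, against 369, 328 and 384 TPM in Col at 27 °C. The groups overlapped, with log2 fold changes of -0.01 ± 0.06 and -0.04 ± 0.06 (adjusted p = 0.9 and 0.64).

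HTA8 had 13.4, 13.6 and 12.6 TPM in ino80, against 13.2, 14.1 and 15.5 TPM in Col at 21 °C, and 8.59, 11.4 and 9.47 TPM in ino80, against 10.6, 9.62 and 9.38 TPM in Col at 27 °C after 12 h. These groups overlapped too, with log2 fold changes of -0.11 ± 0.10 and -0.01 ± 0.10 (adjusted p = 0.48 and 0.95). HTA4 had 5.91, 2.78 and 4.74 TPM in ino80, against 6.83, 6.24 and 10.1 TPM in Col at 21 °C, and 9.15, 5.77 and 7.64 TPM in ino80, against 4.46, 5.77 and 6.55 TPM in Col at 27 °C. It was called lower at 21 °C (-0.69 ± 0.22, adjusted p = 0.032), a call lost without Col replicate 3 (0.14), ino80 replicate 2 (0.15) or ino80 replicate 3 (0.056) and with no filter on low TPM (0.054), and the 27 °C value of 0.36 ± 0.22 did not pass (adjusted p = 0.24).

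The H1 genes HIS1-3 and AT2G30620 kept their opposite directions after 12 h, and AT1G06760 was called at neither temperature. The means of AT1G06760 were 247.9 TPM in ino80 and 270.5 TPM in Col at 21 °C, and 369.5 and 369.8 TPM at 27 °C. HIS1-3 had 77.8, 74.5 and 86.9 TPM in ino80, against 44.5, 51.02 and 54.7 TPM in Col at 21 °C. At 27 °C it had 178, 223 and 184 TPM in ino80, against 129, 111 and 181 TPM in Col. The groups were apart at 21 °C and overlapped at 27 °C, where Col replicate 3 stood above ino80 replicate 1. HIS1-3 was higher in ino80 with log2 fold changes of 0.66 ± 0.14 at 21 °C (adjusted p = 0.0029) and at a log2 fold change of 0.49 ± 0.14 at 27 °C (adjusted p = 0.016), the second call being lost without Col replicate 1 (0.061), Col replicate 2 (0.074) or ino80 replicate 2 (0.069). AT2G30620 had 181, 194 and 197 TPM in ino80, against 232, 237 and 242 TPM in Col at 21 °C, and 251, 243 and 246 TPM in ino80, against 302, 305 and 319.6 TPM in Col at 27 °C. It was lower in every ino80 library, with log2 fold changes of -0.31 ± 0.05 and -0.32 ± 0.05 (adjusted p = 0.00033 and 0.00022).

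Fewer S phase genes than at 1 h passed the test between genotypes at 12 h, while at 21 °C more genes of G2 and M phase did; the times were not compared by a test. At 21 °C 5 of 18 S phase genes were lower (median log2 fold change -0.19) and 8 of 15 genes of G2 and M phase (median -0.36). At 27 °C 4 of 18 were lower and 1 higher (median -0.08), and 1 of 15 was lower (median -0.03). Among all tested genes 12.1% were lower and 16.7% higher at 21 °C, and 11.5% and 18.7% at 27 °C. TSO2 had log2 fold changes of -0.33 ± 0.08 and -0.36 ± 0.08, MCM3 had -0.57 ± 0.09 at 27 °C, and PCNA2, a second clamp gene, was higher there at a log2 fold change of 0.45 ± 0.09. CDC20.1, an activator of the anaphase-promoting complex, had a log2 fold change of -0.74 ± 0.09 at 21 °C. Of 13 chaperone genes 2 were higher at each temperature, with 1 lower at 21 °C and 2 at 27 °C, and the higher ones were SSRP1 (0.43 ± 0.08 and 0.35 ± 0.08) and ASF1B, an H3-H4 chaperone (0.52 ± 0.08 and 0.34 ± 0.08). Of 9 G1 to S regulators 3 were lower at 21 °C, among them E2FC at a log2 fold change of -0.76 ± 0.10, and at 27 °C 2 were lower and 2 higher. Of 5 SWR1 subunit genes none was called by limma at either temperature, and 1 had an unadjusted p under 0.05 at each. Summed root markers were 3449 to 3841 TPM in ino80 and 1853 to 2087 TPM in Col at 21 °C, and 3701 to 4057 TPM in ino80 and 1820 to 2576 TPM in Col at 27 °C. PYK10 made up most of these sums and was the only root marker called, higher in ino80 at both temperatures, while IRT1 had -0.40 ± 0.34 at 21 °C and 0.28 ± 0.34 at 27 °C (adjusted p = 0.42 and 0.58).

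After an hour of warmth a larger share of histone genes than of all tested genes was higher in both genotypes. The share that was lower was near that of all in Col and below it in ino80. The largest change in either genotype was the fall of the H2B gene AT2G28720. In ino80 16 of 42 were higher at 27 °C, where 15.2% of all tested genes were higher, and 3 were lower, where 16.8% of all were. In Col 11 were higher and 7 lower (26.2% and 16.7% of the 42), against 15.7% and 18.5% of all tested genes. In ino80 12 of the 16 higher calls and all 3 lower ones held without each library. In Col 9 of the 11 and 5 of the 7 did. The medians of the histone genes were 0.20 in ino80 and 0.09 in Col, and those of all genes within 0.01 of 0. The higher genes included 7 of 9 for H2A other than H2A.Z and 4 of 9 tested for H2B in ino80, and 5 of 9 and 3 of 9 in Col. Of 18 S phase genes 12 were lower at 27 °C in ino80 (median -0.36), with MCM3 at a log2 fold change of -0.54 ± 0.08, MCM2 at a log2 fold change of -0.42 ± 0.08 and the replication factor gene ETG1 at a log2 fold change of -0.48 ± 0.09. In Col none of 18 was called by limma (median -0.09), where 3 lower and 1 higher had an unadjusted p under 0.05, and 1 was called in each direction after rescaling. The interaction was called for none of the 18, with 6 at an unadjusted p under 0.05, for which no share of all tested genes was taken. Of 15 genes of G2 and M phase 1 was higher and 2 lower in ino80, and 2 higher in Col. Of 13 chaperone genes 1 was higher and 4 lower in ino80, and 1 and 2 in Col. Of 9 G1 to S regulators 2 were higher and 2 lower in ino80, and 1 and 1 in Col, and of 5 SWR1 subunit genes 2 were lower in ino80 and none was called in Col, with 1 at an unadjusted p under 0.05.

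Within H2A other than H2A.Z, the H2A.W genes HTA7 and HTA12 and the canonical HTA10 had the highest test statistics after 1 h of warmth in both genotypes. In ino80 HTA7 had 61.4, 60.1 and 55.9 TPM at 27 °C, against 38.3, 37.8 and 34.8 TPM at 21 °C. HTA12 had 16.3, 17.8 and 15.9 TPM at 27 °C, against 11.4, 12.1 and 11.9 TPM at 21 °C. HTA10 had 184, 194 and 199 TPM at 27 °C, against 141, 129 and 141 TPM at 21 °C. The 27 °C libraries stood above those of 21 °C without overlap, by log2 fold changes of 0.66 ± 0.06 for HTA7, 0.46 ± 0.08 for HTA12 and 0.49 ± 0.05 for HTA10 (SE, adjusted p at most 0.00035). In Col HTA7 had 53.7, 55.04 and 49.3 TPM at 27 °C, against 34.8, 35.9 and 39.1 TPM at 21 °C. HTA12 had 15.5, 15.8 and 15.02 TPM at 27 °C, against 9.35, 10.3 and 11.8 TPM at 21 °C in Col. HTA10 had 244, 262 and 258 TPM at 27 °C, against 196, 196 and 193 TPM at 21 °C in Col. No groups overlapped, and the log2 fold changes were 0.51 ± 0.06, 0.52 ± 0.08 and 0.38 ± 0.05 in that order (adjusted p at most 0.0001). HTA12 overlaps AT5G02570 by 522 bases, and the use of strand in counting is not stated in the labels.

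H2B genes moved both ways after 1 h. In ino80 AT2G28720 had 14.1, 16.2 and 14.7 TPM at 27 °C, against 28.4, 24.8 and 32.1 TPM at 21 °C. HTB4 had 257, 256 and 254 TPM at 27 °C, against 184, 201 and 188 TPM at 21 °C. AT3G53650, weakly expressed, had 5.71, 4.82 and 5.11 TPM at 27 °C, against 3.12, 2.79 and 3.26 TPM at 21 °C. All 27 °C libraries lay below all 21 °C libraries for the first and above them for the others. The log2 fold changes were -0.87 ± 0.09 for AT2G28720, 0.42 ± 0.04 for HTB4 and 0.61 ± 0.14 for AT3G53650 (adjusted p at most 0.0032). In Col AT2G28720 had 31.3, 30.6 and 34.4 TPM at 27 °C, against 55.9, 65.6 and 63.8 TPM at 21 °C. HTB4 had 292, 281 and 287 TPM at 27 °C, against 212, 229 and 216 TPM at 21 °C in Col. AT3G53650 had 9.44, 7.35 and 8.097 TPM at 27 °C, against 5.34, 5.06 and 3.19 TPM at 21 °C in Col. The directions and the separation of the libraries were as in ino80, with log2 fold changes of -0.92 ± 0.09, 0.39 ± 0.04 and 0.77 ± 0.14 in that order (adjusted p at most 0.00049).

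Of H3, the H3.3 gene AT4G40030 had 336, 328 and 333 TPM at 27 °C, against 401, 411 and 399.7 TPM at 21 °C in ino80 at 1 h. The H3.1 gene AT5G10390 had 24.3, 18.9 and 17.9 TPM at 27 °C, against 25.5, 27.8 and 29.8 TPM at 21 °C. The H3.3 gene AT5G10980 had 205, 200.1 and 203 TPM at 27 °C, against 179, 175 and 173 TPM at 21 °C. AT4G40030 and AT5G10390 fell and AT5G10980 rose, all without overlap, with log2 fold changes of -0.28 ± 0.05 for AT4G40030, -0.43 ± 0.10 for AT5G10390 and 0.20 ± 0.06 for AT5G10980 (adjusted p at most 0.012). In Col AT4G40030 had 315, 310.0 and 332 TPM at 27 °C, against 378, 431 and 395 TPM at 21 °C. AT4G40040 had 229, 223 and 223 TPM at 27 °C, against 266, 277 and 271 TPM at 21 °C in Col. Both H3.3 genes fell with no overlap, with log2 fold changes of -0.33 ± 0.05 for AT4G40030 and -0.27 ± 0.04 for AT4G40040 (adjusted p at most 5.9e-05). HTR12 had 2.02, 1.78 and 1.95 TPM at 27 °C, against 1.32, 1.504 and 1.23 TPM at 21 °C in ino80, and 2.48, 2.78 and 2.32 TPM at 27 °C, against 2.64, 2.18 and 2.74 TPM at 21 °C in Col. The groups were apart in ino80 and overlapped in Col. HTR12 was called higher in ino80 at a log2 fold change of 0.31 ± 0.11 (adjusted p = 0.047), a call lost without 11 of the 12 libraries (adjusted p 0.051 to 0.13) and with a pseudocount of 5 (0.066), and the Col value was 0.00 ± 0.11 (adjusted p = 0.99). No H4 call held in either genotype.

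Of the H2A.Z genes, 1 passed the test after 1 h of warmth in each genotype, HTA4 in ino80 and HTA9 in Col. In ino80 HTA9 had 118, 113 and 122 TPM at 27 °C, against 126, 125 and 118 TPM at 21 °C, and in Col 127, 123 and 123 TPM at 27 °C, against 137, 145 and 137 TPM at 21 °C. In Col the libraries were apart and HTA9 fell by 0.16 on the log2 scale (SE 0.05, adjusted p = 0.011), and in ino80 the value was -0.06 ± 0.05 (adjusted p = 0.32). HTA11 had 14.97, 12.5 and 12.2 TPM at 27 °C, against 15.7, 12.2 and 14.5 TPM at 21 °C in ino80, and 25.7, 27.4 and 22.3 TPM at 27 °C, against 24.03, 20.7 and 22.8 TPM at 21 °C in Col. HTA8 had 7.63, 5.44 and 6.15 TPM at 27 °C, against 7.02, 6.38 and 5.19 TPM at 21 °C in ino80, and 7.8, 8.41 and 8.36 TPM at 27 °C, against 8.59, 8.399 and 8.96 TPM at 21 °C in Col. Temperatures overlapped for both genes in both genotypes, with log2 values of -0.08 ± 0.10 in ino80 and 0.15 ± 0.10 in Col for HTA11 and 0.04 ± 0.11 in ino80 and -0.07 ± 0.11 in Col for HTA8 (adjusted p = 0.58, 0.28, 0.83 and 0.68). HTA4 had 4.38, 4.33 and 3.62 TPM at 27 °C, against 2.74, 3.22 and 1.67 TPM at 21 °C in ino80, and 5.27, 4.74 and 4.47 TPM at 27 °C, against 3.53, 3.202 and 3.67 TPM at 21 °C in Col. The 27 °C libraries were higher without overlap in both, at a log2 fold change of 0.55 ± 0.14 in ino80 (adjusted p = 0.0079), while 0.38 ± 0.14 in Col missed the threshold (adjusted p = 0.051).

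For H1, AT1G06760 had 139, 139 and 137 TPM at 27 °C, against 117, 121 and 109 TPM at 21 °C in ino80, and 165, 161 and 159 TPM at 27 °C, against 149, 119 and 138 TPM at 21 °C in Col. It rose in both with no overlap, with log2 fold changes of 0.26 ± 0.07 in ino80 and 0.26 ± 0.07 in Col (0.0084 and 0.0066 as adjusted p). AT2G30620 had 80.1, 82.3 and 75.1 TPM at 27 °C, against 89.9, 87.1 and 87.9 TPM at 21 °C in ino80, and 94.7, 96.02 and 94.2 TPM at 27 °C, against 146, 122 and 140.1 TPM at 21 °C in Col. In Col it fell, with a log2 fold change of -0.51 ± 0.06 (adjusted p = 7.4e-06) with all 27 °C libraries below all of 21 °C, and in ino80 the value was -0.16 ± 0.06 (adjusted p = 0.061). HIS1-3 had 33.4, 33.9 and 34.6 TPM at 27 °C, against 27.7, 24.4 and 32.3 TPM at 21 °C in ino80, and 16.5, 15.9 and 17.5 TPM at 27 °C, against 14.1, 19.1 and 19.3 TPM at 21 °C in Col, overlapping in Col, with values of 0.27 ± 0.11 and -0.06 ± 0.11 that did not pass (adjusted p = 0.067 and 0.73).

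After 12 h of warmth most of the replicative histone genes were lower in both genotypes, while HTA9 and the H1 genes rose. In ino80 26 of 42 were lower at 27 °C, where 19.3% of all tested genes were lower, and 9 were higher, where 38.1% of all were. In Col 31 were lower and 8 higher, against 21.8% and 36.8% of all tested genes. The medians were -0.43 in ino80 and -0.52 in Col for the histone genes, and 0.15 and 0.13 for all tested genes. That shift of all genes vanished after rescaling by the median of ratios (medians 0.01), under which 32 histone genes were lower and 7 higher in ino80 and 32 lower and 6 higher in Col. The split of all genes moved with it: in ino80 7458 were higher and 3783 lower as deposited, and 5217 and 5445 rescaled, and in Col 7201 and 4274 as deposited, and 5555 and 5598 rescaled. By class, the lower genes were 7 of 9 for other H2A, 5 of 9 tested for H2B, 5 of 9 tested for H3, 7 of 8 for H4 and 2 of 4 for H2A.Z in ino80, and 7, 8, 7, 7 and 2 in Col.

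HTA9 had the strongest rise of the H2A.Z genes. In ino80 HTA9 had 362, 349.9 and 337 TPM at 27 °C, against 189.9, 189 and 198 TPM at 21 °C. In Col it had 369, 328 and 384 TPM at 27 °C, against 192, 189.7 and 199.6 TPM at 21 °C. Every 27 °C library stood above every 21 °C library, by log2 fold changes of 0.86 ± 0.06 in ino80 and 0.89 ± 0.06 in Col (SE, 1.82-fold and 1.85-fold, adjusted p = 2.3e-08 and 1.4e-08), and by 0.70 and 0.76 after rescaling. HTA11 went the other way, with 31.9, 36.4 and 30.1 TPM at 27 °C, against 42.5, 39.6 and 45.2 TPM at 21 °C in ino80, and 38.2, 37.5 and 37.4 TPM at 27 °C, against 50.3, 51.1 and 54.02 TPM at 21 °C in Col. HTA8 did as well, with 8.59, 11.4 and 9.47 TPM at 27 °C, against 13.4, 13.6 and 12.6 TPM at 21 °C in ino80, and 10.6, 9.62 and 9.38 TPM at 27 °C, against 13.2, 14.1 and 15.5 TPM at 21 °C in Col. Both fell in both genotypes without overlap, with log2 fold changes of -0.36 ± 0.07 in ino80 and -0.45 ± 0.07 in Col for HTA11, and -0.40 ± 0.10 in ino80 and -0.49 ± 0.10 in Col for HTA8 (adjusted p at most 0.0047). HTA4 had 9.15, 5.77 and 7.64 TPM at 27 °C, against 5.91, 2.78 and 4.74 TPM at 21 °C in ino80, and 4.46, 5.77 and 6.55 TPM at 27 °C, against 6.83, 6.24 and 10.1 TPM at 21 °C in Col. Its groups overlapped in both genotypes. In ino80 it was called higher at a log2 fold change of 0.66 ± 0.22 (adjusted p = 0.02), a call lost without ino80 27 °C replicate 1 (0.088) or 3 (0.052), without ino80 21 °C replicate 2 (0.11) and with rescaling (0.053), and in Col the value was -0.39 ± 0.22 (adjusted p = 0.15).

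Among other H2A genes, HTA6 had 119, 134 and 122 TPM at 27 °C, against 270.0, 261 and 272 TPM at 21 °C in ino80. HTA13 had 66.7, 71.02 and 71.4 TPM at 27 °C, against 106, 103 and 95.6 TPM at 21 °C. H2AXA, for the H2A.X variant that is phosphorylated at DNA breaks, had 129.6, 141 and 123 TPM at 27 °C, against 195, 176 and 181 TPM at 21 °C. They fell in ino80, every 27 °C library lying below every 21 °C library, with log2 fold changes of -1.10 ± 0.07 for HTA6, -0.54 ± 0.06 for HTA13 and -0.49 ± 0.06 for H2AXA (adjusted p at most 8.5e-06). In Col HTA6 had 155, 132 and 129 TPM at 27 °C, against 284, 291 and 311 TPM at 21 °C. HTA13 had 64.2, 62.7 and 61.6 TPM at 27 °C, against 121, 125 and 109.6 TPM at 21 °C in Col. HTA10 had 180.0, 152 and 131 TPM at 27 °C, against 264, 258 and 273 TPM at 21 °C in Col after 12 h. Again no groups overlapped, with log2 fold changes of -1.09 ± 0.07, -0.90 ± 0.06 and -0.79 ± 0.08 in that order (adjusted p at most 1.7e-06). HTA12 differed from the other H2A.W genes in direction, with log2 fold changes of 0.49 ± 0.12 in ino80 and 0.54 ± 0.12 in Col (0.0035 and 0.0017 as adjusted p), and was picked out after its values were seen. So was RAT5, a canonical H2A gene, with 56.8, 67.4 and 58.1 TPM at 27 °C, against 42.9, 47.99 and 47.3 TPM at 21 °C in ino80, and 58.3, 58.8 and 54.6 TPM at 27 °C, against 50.8, 45.6 and 51.6 TPM at 21 °C in Col. It was called higher in both, with log2 fold changes of 0.39 ± 0.08 in ino80 (adjusted p = 0.00055) and 0.21 ± 0.08 in Col (adjusted p = 0.028), and the Col call was lost with rescaling (0.08 on the log2 scale, adjusted p = 0.37) and without single libraries (adjusted p up to 0.13).

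Of the 9 tested H2B genes 5 were lower in ino80 and 8 in Col, and none was higher. In ino80 HTB1 had 81.3, 94.97 and 79.3 TPM at 27 °C, against 145, 153 and 148 TPM at 21 °C. AT2G37470 had 30.4, 36.01 and 29.8 TPM at 27 °C, against 65.1, 66.1 and 56.5 TPM at 21 °C. HTB11 had 230.4, 256 and 251 TPM at 27 °C, against 342, 343 and 345 TPM at 21 °C. With no overlap, the log2 fold changes were -0.80 ± 0.08 for HTB1, -0.94 ± 0.10 for AT2G37470 and -0.48 ± 0.05 for HTB11 (adjusted p at most 2.4e-06). In Col HTB1 had 88.2, 84.8 and 77.3 TPM at 27 °C, against 180.2, 181 and 207 TPM at 21 °C. HTB2 had 317, 282 and 311 TPM at 27 °C, against 503, 533 and 529 TPM at 21 °C in Col. HTB11 had 266, 245 and 242 TPM at 27 °C, against 365, 365 and 367 TPM at 21 °C in Col. The libraries at 27 °C were the lower ones throughout, with log2 fold changes of -1.17 ± 0.08, -0.78 ± 0.06 and -0.54 ± 0.05 in that order (adjusted p at most 6.8e-07). AT2G28720, so distinct between genotypes, had values of -0.13 ± 0.07 in ino80 (adjusted p = 0.16) and -0.26 ± 0.07 in Col (adjusted p = 0.0074), and the Col call held without each library.

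All 5 H3.1 genes were lower at 27 °C in both genotypes. In ino80 AT5G10390 had 23.3, 25.8 and 25.6 TPM at 27 °C, against 72.3, 72.1 and 74.1 TPM at 21 °C. AT1G09200 had 129, 159.5 and 132 TPM at 27 °C, against 302, 307 and 309 TPM at 21 °C. AT5G65360, the most abundant H3.1 gene, had 168, 209.8 and 190.0 TPM at 27 °C, against 382, 377 and 362 TPM at 21 °C. They fell without overlap, with log2 fold changes of -1.51 ± 0.06 for AT5G10390, -1.13 ± 0.08 for AT1G09200 and -0.98 ± 0.08 for AT5G65360 (adjusted p at most 6.4e-08). In Col AT5G10390 had 32.7, 31.3 and 30.8 TPM at 27 °C, against 84, 73.5 and 77.01 TPM at 21 °C. AT1G09200 had 164, 149.9 and 135 TPM at 27 °C, against 360.3, 338 and 375 TPM at 21 °C in Col. AT5G65360 had 189, 169.6 and 170.2 TPM at 27 °C, against 361, 345 and 390.2 TPM at 21 °C in Col. The log2 fold changes came to -1.28 ± 0.06, -1.25 ± 0.08 and -1.05 ± 0.08 in that order, with the libraries apart as well (adjusted p at most 2.8e-08). The weakly expressed H3.1 gene AT3G27360 was lower in ino80 at an adjusted p of 0.047, a call lost with no filter on low TPM (0.071) and without single libraries (up to 0.27). The H3.3 genes AT4G40040 and AT4G40030, named after their values were seen, were higher: AT4G40040 with log2 fold changes of 0.33 ± 0.05 in ino80 and 0.35 ± 0.05 in Col, and AT4G40030 with log2 fold changes of 0.23 ± 0.05 and 0.23 ± 0.05. The calls of AT4G40030 ended with rescaling, at 0.07 in ino80 (adjusted p = 0.33) and 0.10 in Col (adjusted p = 0.18). The third H3.3 gene, AT5G10980, had a log2 fold change of -0.05 ± 0.06 in ino80 (adjusted p = 0.52) and was called lower in Col at a log2 fold change of -0.18 ± 0.06 (adjusted p = 0.017), a call lost without Col 21 °C replicate 2 (0.058) or Col 27 °C replicate 3 (0.073).

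HTR12 had 2.42, 2.79 and 2.13 TPM at 27 °C, against 2.79, 2.95 and 3.84 TPM at 21 °C in ino80, and 2.49, 2.71 and 2.64 TPM at 27 °C, against 3.86, 4.003 and 4.65 TPM at 21 °C in Col. It was lower at 27 °C in Col at a log2 fold change of -0.51 ± 0.13 without overlap (adjusted p = 0.0044), and the ino80 value of -0.28 ± 0.13 did not pass (adjusted p = 0.09, and 0.016 with rescaling). For H4, AT3G45930 had 52.5, 55.7 and 54.5 TPM at 27 °C, against 116, 116 and 113 TPM at 21 °C in ino80. AT3G46320 had 50.2, 53.9 and 52.6 TPM at 27 °C, against 121, 108 and 119 TPM at 21 °C. AT5G59970 had 59.3, 67.3 and 55.99 TPM at 27 °C, against 121, 118 and 117 TPM at 21 °C. Their 27 °C libraries lay far below those of 21 °C, with log2 fold changes of -1.07 ± 0.06 for AT3G45930, -1.13 ± 0.09 for AT3G46320 and -0.96 ± 0.08 for AT5G59970 (adjusted p at most 1.3e-07). In Col AT3G45930 had 63.9, 59.9 and 53.3 TPM at 27 °C, against 132, 131 and 129 TPM at 21 °C. AT3G46320 had 69.3, 59.7 and 49.4 TPM at 27 °C, against 141, 144 and 147 TPM at 21 °C in Col. AT5G59970 had 73.9, 62.1 and 61.02 TPM at 27 °C, against 155, 167 and 169 TPM at 21 °C in Col. The log2 fold changes were -1.14 ± 0.06, -1.27 ± 0.09 and -1.31 ± 0.08 in that order, also without overlap (adjusted p at most 3.2e-08). AT1G07660 was the H4 gene not called, with log2 fold changes of -0.11 ± 0.06 in ino80 and -0.11 ± 0.06 in Col (0.11 and 0.13 as adjusted p). It is the H4 gene with most repeated exon windows, at 30.8%, but AT3G46320 and AT3G45930, both lower, have 27.9% and 25.7%. The call of the H4 gene AT1G07820 in ino80 was lost with no filter on low TPM (adjusted p = 0.057) and without single libraries (up to 0.24).

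All 3 H1 genes rose after 12 h of warmth. In ino80 HIS1-3 had 178, 223 and 184 TPM at 27 °C, against 77.8, 74.5 and 86.9 TPM at 21 °C. AT1G06760 had 358, 381 and 369.7 TPM at 27 °C, against 239, 249 and 255 TPM at 21 °C. AT2G30620 had 251, 243 and 246 TPM at 27 °C, against 181, 194 and 197 TPM at 21 °C. The rises on the log2 scale, without overlap, were 1.28 ± 0.14 for HIS1-3, 0.57 ± 0.05 for AT1G06760 and 0.37 ± 0.05 for AT2G30620 (adjusted p at most 1.8e-05). In Col HIS1-3 had 129, 111 and 181 TPM at 27 °C, against 44.5, 51.02 and 54.7 TPM at 21 °C. AT1G06760 had 365, 376 and 368 TPM at 27 °C, against 273, 269.9 and 269 TPM at 21 °C in Col. AT2G30620 had 302, 305 and 319.6 TPM at 27 °C, against 232, 237 and 242 TPM at 21 °C in Col. They rose with log2 fold changes of 1.44 ± 0.14, 0.45 ± 0.05 and 0.38 ± 0.05 in that order, with every 27 °C library above those of 21 °C (adjusted p at most 1.2e-05). AT1G06760 overlaps another annotated gene by 484 bases.

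The genes of S phase were lower in warmth at 12 h beside the replicative histones, 17 of 18 in ino80 (median log2 fold change -0.55) and 16 of 18 in Col (median -0.71). TSO2 had log2 fold changes of -1.11 ± 0.08 in ino80 and -1.08 ± 0.08 in Col, and RNR1, the other ribonucleotide reductase subunit, had -0.97 ± 0.09 and -1.06 ± 0.09 (SE). Of 15 genes of G2 and M phase 4 were lower in ino80 and 10 in Col, with CYCB1;1, a mitotic cyclin gene, at a log2 fold change of -0.78 ± 0.13 in Col. Of 13 chaperone genes 7 were lower and 3 higher in each genotype. NRP2, of a family of H2A-H2B chaperones, had log2 fold changes of -0.78 ± 0.09 in ino80 and -0.89 ± 0.09 in Col. Of 9 G1 to S regulators 3 were higher and 2 lower in ino80, and 2 and 3 in Col, among them the D-type cyclin gene CYCD3;1, up with log2 fold changes of 0.62 ± 0.07 and 0.52 ± 0.07, and the activator E2FA, with log2 fold changes of -0.61 ± 0.12 and -0.66 ± 0.12. Of 5 SWR1 subunit genes 2 were higher and 1 lower in each genotype, SWC6 with log2 fold changes of 0.52 ± 0.13 and 0.72 ± 0.13 and ARP6 with log2 fold changes of 0.33 ± 0.09 and 0.33 ± 0.09. Among all tested genes 38.1% were higher and 19.3% lower in ino80, and 36.8% and 21.8% in Col. The SWR1 counts were near these shares. The sum of 4 markers of green tissue, all detected in every library, was 16990 to 19760 TPM at 27 °C and 31430 to 34540 TPM at 21 °C in ino80, and 20020 to 22530 TPM at 27 °C and 33340 to 37130 TPM at 21 °C in Col. RBCS1A made up most of this sum. It and 2 others of the 4 markers were lower at 27 °C in each genotype, and LHCB2.1, a gene for a light-harvesting protein, was higher, with 19.4, 24.5 and 24.02 TPM at 27 °C, against 8.32, 8.203 and 6.84 TPM at 21 °C in ino80, and 46.4, 43.2 and 36.7 TPM at 27 °C, against 18.7, 22.7 and 20.2 TPM at 21 °C in Col. The part of dividing cells and of green tissue in the histone changes was not tested.

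**Figure D3:**
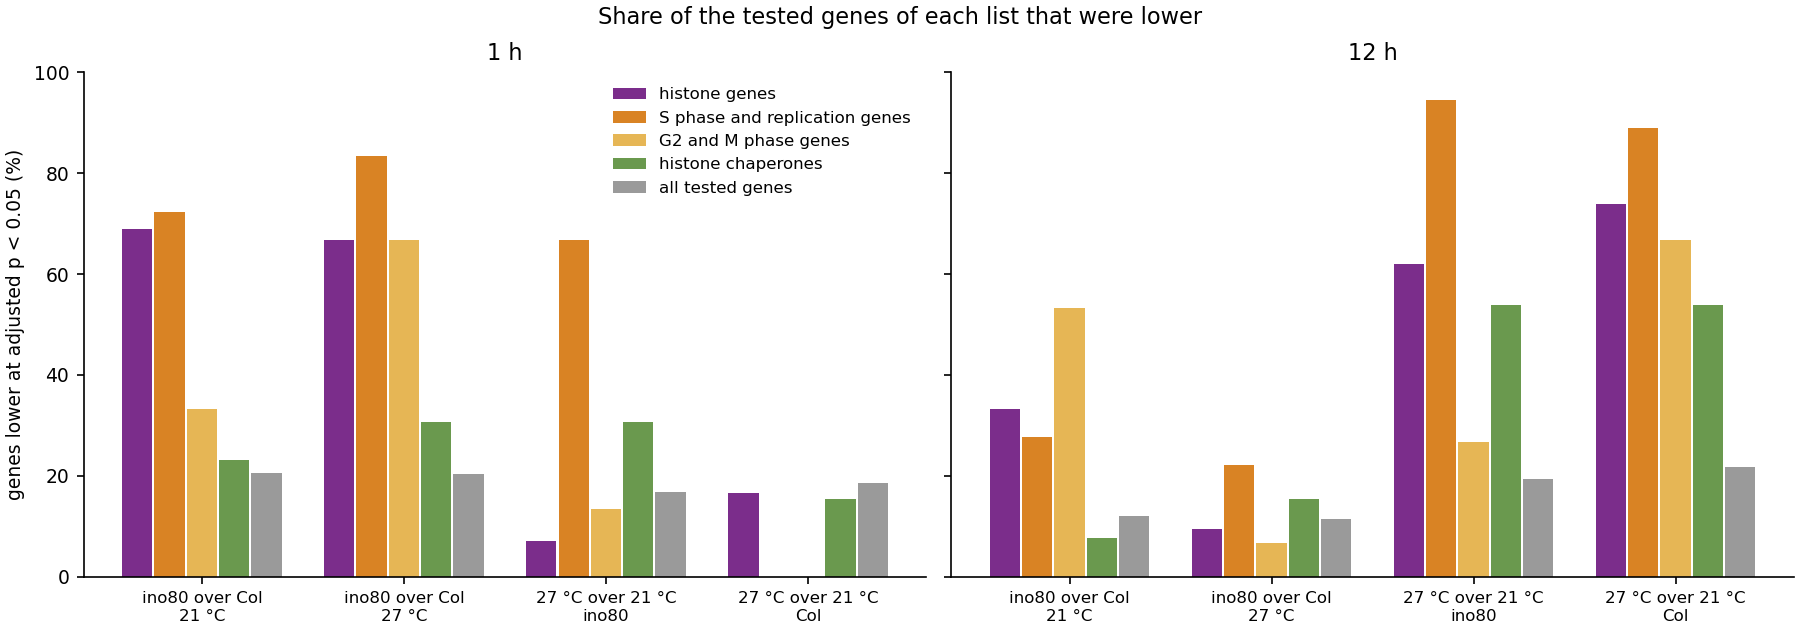
Percentage of tested genes lower at an adjusted p under 0.05 (vertical axis) for the 42 histone genes, 3 lists of related genes and all tested genes, in each contrast (horizontal axis) at 1 h (left) and 12 h (right). Histone and S phase genes stand above the grey bar of all genes for ino80 over Col at 1 h and for 27 °C over 21 °C at 12 h, while at 1 h of warmth in ino80 12 of 18 S phase genes but 3 of 42 histone genes were lower.

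Summed over genes, the H3.1 transcripts had the largest log2 ratio of 27 °C over 21 °C among the 7 classes at 12 h, -1.03 in ino80 and -1.14 in Col. At 12 h the H3.1 sum was 448 ± 45.2 TPM at 27 °C and 914 ± 4.97 TPM at 21 °C in ino80 (SD, n = 3), and 444 ± 37.1 TPM at 27 °C and 981 ± 45.5 TPM at 21 °C in Col. The H4 sum was 809.6 ± 51.4 TPM at 27 °C and 1261 ± 40.9 TPM at 21 °C in ino80, and 811 ± 58.4 TPM at 27 °C and 1454 ± 29.6 TPM at 21 °C in Col. By contrast the H3.3 sum was 1482 ± 67.1 TPM at 27 °C and 1282 ± 37.1 TPM at 21 °C in ino80, and 1396 ± 22.6 TPM at 27 °C and 1230 ± 18.7 TPM at 21 °C in Col. In each of these the libraries of the temperatures did not overlap. The rise of the H3.3 sum rested largely on AT4G40040. Without it the log2 ratio of 27 °C over 21 °C went from 0.21 to 0.10 in ino80 and from 0.18 to 0.05 in Col. The median log2 fold changes of all tested genes as deposited were 0.15 in ino80 and 0.13 in Col. The share of H3.3 in H3.1 and H3.3 transcripts at 12 h was 76.8 ± 1.36% at 27 °C and 58.4 ± 0.759% at 21 °C in ino80, and 75.9 ± 1.5% at 27 °C and 55.7 ± 1.38% at 21 °C in Col. The share of H2A.Z in all H2A transcripts was 33.3 ± 1.36% at 27 °C and 17.9 ± 0.428% at 21 °C in ino80, and 33.96 ± 2.37% at 27 °C and 17.4 ± 0.291% at 21 °C in Col. With HTA9 and HTA6, the highest other H2A gene at 12 h, both left out, it was 6.90% at 27 °C and 6.31% at 21 °C in ino80. In Col it was then 7.41% at 27 °C and 7.06% at 21 °C. These are shares of TPM, not of protein.

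At 1 h the all-histone sum was 3164 ± 49.7 TPM in ino80 and 3936 ± 37.7 TPM in Col at 21 °C (SD, n = 3), and 3353 ± 73.1 TPM in ino80 and 4029 ± 76.1 TPM in Col at 27 °C. The H4 sum was 395 ± 40 TPM in ino80 and 569 ± 16.6 TPM in Col at 21 °C, and 434 ± 18.6 TPM in ino80 and 588 ± 12.3 TPM in Col at 27 °C. Both were lower in each ino80 library than in any Col library. The H2A.Z sum was 146 ± 5.82 TPM in ino80 and 174 ± 2.73 TPM in Col at 21 °C, and 141 ± 5.39 TPM in ino80 and 163 ± 3.85 TPM in Col at 27 °C. The share of H2A.Z in H2A at 21 °C was 23.4 ± 0.972% in ino80 and 21.98 ± 0.811% in Col. At 27 °C it was 18.97 ± 0.697% in ino80 and 17.97 ± 0.422% in Col. The groups overlapped at both temperatures. Without HTA9 and HTA10, the highest other H2A gene at 1 h, the difference, ino80 minus Col, turned to -1.25 points at 21 °C and -1.8 points at 27 °C. The share of H3.3 in H3.1 and H3.3 was 71.1 ± 0.749% in ino80 and 65.98 ± 1.45% in Col for the cooler and 69.7 ± 1.57% in ino80 and 60.8 ± 1.11% in Col for the warmer seedlings. The sums of H1 were 232 ± 3.07 TPM in ino80 and 289 ± 26.5 TPM in Col at 21 °C, and 251 ± 4.14 TPM in ino80 and 273 ± 3.06 TPM in Col at 27 °C, which hides the opposite directions of HIS1-3 and AT2G30620.

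**Figure D4:**
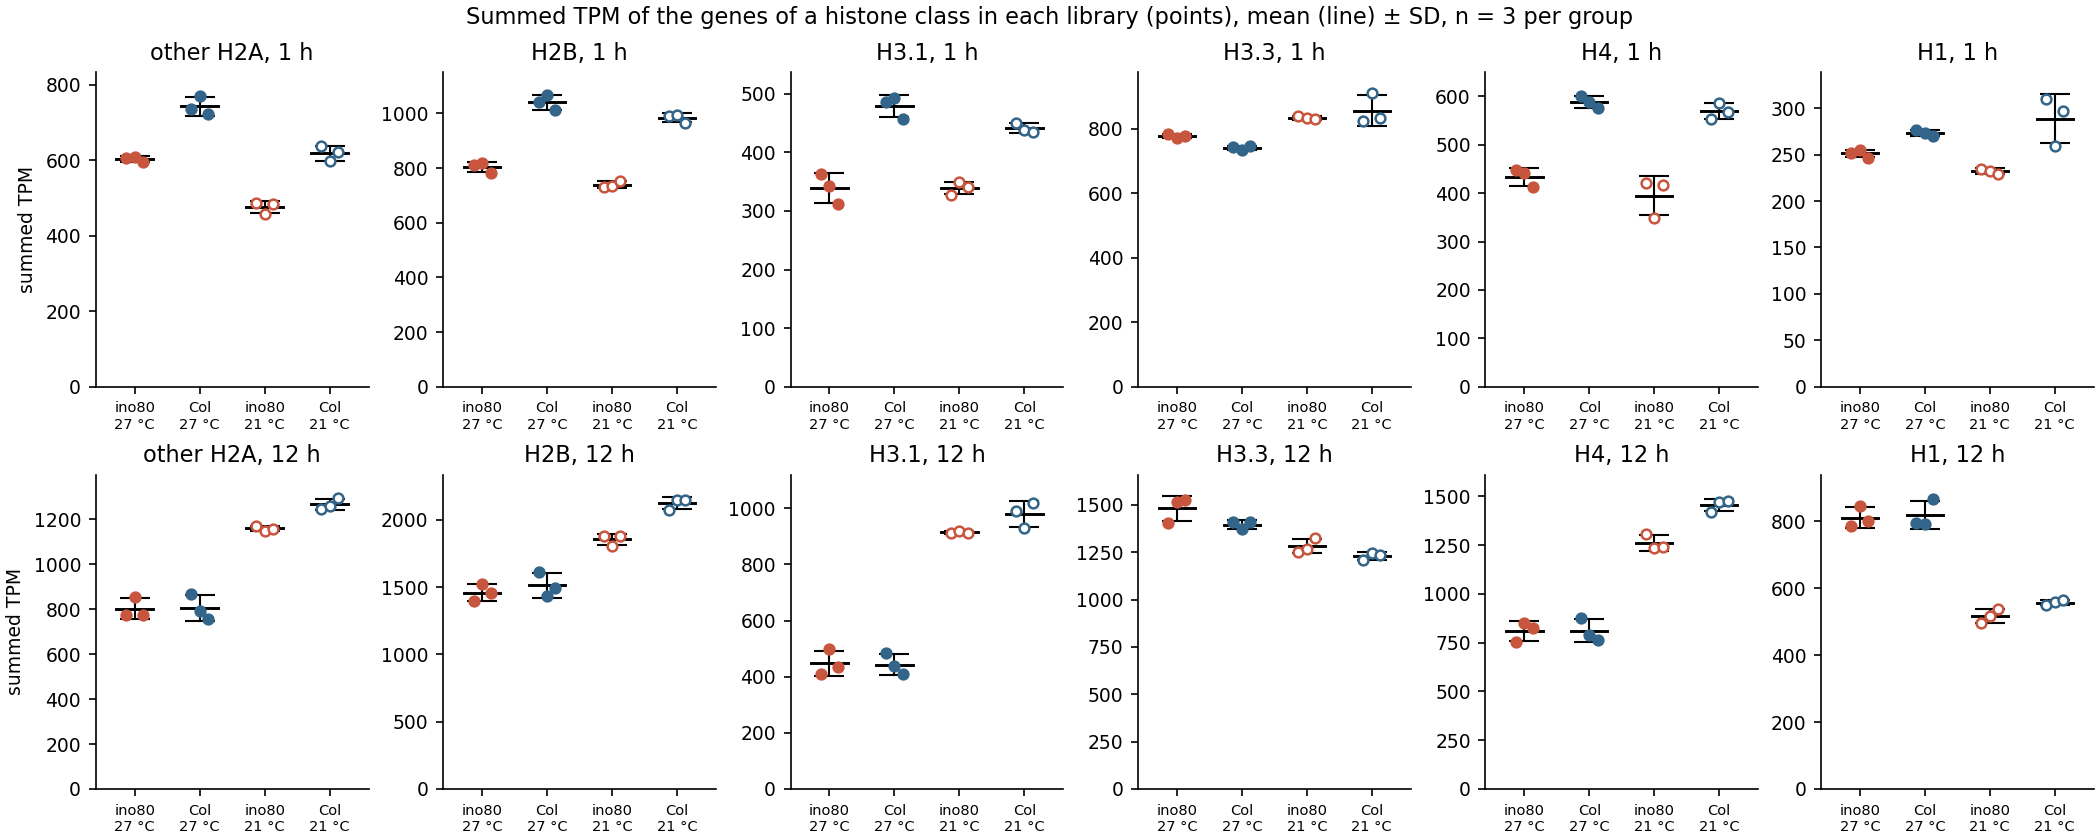
Summed TPM of the genes of 6 histone classes in each library at 1 h (top) and 12 h (bottom), with the 3 libraries of a group as points, their mean as a line and their SD as the bar; scales differ between panels and start at 0. At 12 h the 27 °C libraries of H3.1 and H4 lie below all 21 °C libraries and those of H1 and H3.3 above them, and at 1 h the ino80 libraries of H4, H3.1 and H2B lie below the Col libraries of the same temperature.

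The difference between the genotypes in their response to warmth, tested as an interaction, passed for 1 of 42 histone genes at 1 h, where 1.09% of all tested genes were called with a change in ino80 above that in Col and 0.792% with one below it, and for none at 12 h, where 0.327% were above and 0.424% below. At an unadjusted p under 0.05 by limma these counts were 6 and 8 of 42, and 0 and 0 were called after rescaling. The share of all tested genes at an unadjusted p was not taken, here or for the other lists. The percentages above are for adjusted p, so the unadjusted counts show no excess. The gene at 1 h was AT2G30620 (H1), whose change in ino80 minus that in Col was 0.35 ± 0.09 (log2, SE, adjusted p = 0.048), and its call was lost with rescaling (0.12), with no filter on low TPM (0.071) and without most single libraries (adjusted p up to 0.13). For HTA11 at 1 h the interaction was -0.23 ± 0.14 (adjusted p = 0.52), and for HTA9 at 12 h -0.03 ± 0.08 (adjusted p = 0.95). Calls made in one genotype and not in the other are therefore not shown to differ, except as given for AT2G30620.

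Carriers of the octamer are set beside the other tested histone genes as a description, without a test. The shares of all tested genes stand with each contrast above. At 1 h and 21 °C 7 of 10 carriers were lower in ino80 (median log2 fold change -0.52) and 22 of 32 others (median -0.36). At 1 h and 27 °C 8 of 10 carriers were lower and 1 higher (median -0.45), and 20 of 32 others lower and 1 higher (median -0.28). After 12 h of warmth 7 of 10 carriers were lower in ino80 (median -0.62) and 19 of 32 others (median -0.38), and in Col 7 of 10 (median -0.84) and 24 of 32 (median -0.50). Between genotypes after 12 h, 2 of 10 carriers and 12 of 32 others were lower in ino80 at 21 °C (both medians -0.14), and 0 and 4 at 27 °C (medians 0.01 and -0.03). After 1 h of warmth 3 of 10 carriers and 13 of 32 others were higher in ino80 (medians 0.12 and 0.20), and 5 and 6 in Col (medians 0.15 and 0.09). The carriers that were higher after 12 h of warmth in both genotypes were the H3.3 gene AT4G40040 and the H1 gene AT1G06760.

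The genes most like HTA11 in their pattern over the 12 libraries of 1 h, by Pearson's correlation of log2(TPM + 1), were AT5G51590 (r = 0.972), RPS5A (0.969), a ribosomal protein gene, PSRP3/1 (0.969), a gene for a plastid ribosomal protein, AT1G74050 (0.967) and MAPKKK5 (0.966), a protein kinase gene. The libraries share groups and scaling, so these values describe the list and test nothing.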

How the data were processed

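RNA-seq of 24 seedling libraries was used as deposited, in a table of TPM (transcripts scaled by gene length and library total) for 1 h and one for 12 h, each with 12 libraries scaled to a sum of 1000000. Per the submitters' processing notes the authors used fastp 0.20.1, HISAT2, HTSeq 0.11.2 and DESeq2 1.26.0 with the TAIR10 genome. The strand setting is not given in the sources used here. TPM keeps no depth, so no counting intervals are given, and precision is that of 3 libraries per group.

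Groups came from the sample labels. Each table was fitted in limma 3.58.1 (R 4.3.3) on log2(TPM + 1), with a mean per group and a mean-variance trend, for genes at 1 TPM or more in at least 3 of 12 libraries. There were 5 contrasts per table, and p-values were Benjamini-Hochberg adjusted over all tested genes, with calls under 0.05. The fit was tested on simulated data. A call held where it survived leaving out each of the 12 libraries. Replicate numbers were not used as a block in the reported fit. Shared sequence was measured as the share of 50-base exon windows found elsewhere, and motifs were searched from 250 bases before to 50 after the annotated start in RefSeq TAIR10.1.

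The histone genes and the lists of related and marker genes were chosen with earlier results of these data known. Genes named in every comparison were the 4 H2A.Z genes, HTR12 and HIS1-3. In each contrast up to 3 called genes per class were named, those with the largest moderated statistic whose call held, and up to 3 per list of related genes by the same rule. For HTA11 the 5 genes with the highest correlation at 1 h were named. Alternatives were a pseudocount of 5, no filter, rescaling by the median of ratios, a replicate block, leaving out each library and a shorter promoter window. Class sums were also taken without their highest gene, and shares without the highest gene of each class in them.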

Additional observations from a re-analysis of the deposited data

Results flagged for a closer look

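AT2G30620, a gene for canonical H1, was called for a different response to 1 h of warmth in the genotypes by the test of that difference. It had 80.1, 82.3 and 75.1 TPM at 27 °C, against 89.9, 87.1 and 87.9 TPM at 21 °C in ino80, and 94.7, 96.0 and 94.2 TPM at 27 °C, against 146, 122 and 140.1 TPM at 21 °C in Col. The difference of the log2 fold changes, ino80 minus Col, was 0.35 (adjusted p = 0.048 by limma). The call was lost with rescaling by the median of ratios (adjusted p = 0.12), with no filter on low TPM (0.071) and without 10 of the 12 libraries, left out in turn (up to 0.13). At 12 h the same difference was -0.01 (adjusted p = 0.98).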

How the results depend on the processing

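Of 192 calls among the histone genes, 191 were kept at a pseudocount of 5, 180 when every gene of the table was tested, 179 after rescaling by the median of ratios, 185 with the replicate block and 153 without each library. Same-numbered libraries correlated at -0.05 to 0.12 at 1 h and -0.29 to 0.20 at 12 h in their deviations from group means, so the numbers share no visible pairing. Under the replicate block the interaction call at 1 h was lost (0 genes), as with rescaling (0) and no filter (0), and no other count of calls moved by over 1.5 times. With rescaling the higher genes in ino80 at 21 °C and 12 h numbered 1. Leaving out single libraries, the lower genes in ino80 numbered 24 to 29 at 21 °C and 22 to 29 at 27 °C after 1 h, and 8 to 16 and 4 to 7 after 12 h. The higher genes in ino80 numbered 1 to 2 and 1 to 3 after 1 h, and 1 to 2 and 0 to 4 after 12 h. In warmth after 1 h, 13 to 16 genes were higher and 3 to 4 lower in ino80, and 9 to 13 higher and 5 to 7 lower in Col. After 12 h these were 8 to 9 and 24 to 26 in ino80, and 7 to 8 and 29 to 31 in Col. The interaction gave 0 to 1 at 1 h and 0 at 12 h. The H2A.Z share of H2A was also taken without HTA9 and the highest other H2A gene (HTA10 at 1 h, HTA6 at 12 h). Its difference, ino80 minus Col, then turned to -1.25 points at 21 °C and -1.8 at 27 °C after 1 h. After 12 h it turned to -0.756 at 21 °C. The change of this share in warmth was then -0.844 in ino80 and -0.294 in Col at 1 h, and 0.591 and 0.343 at 12 h. The H2A.Z sum without HTA9 had log2 ratios, ino80 over Col, of -0.60 at 21 °C and -0.69 at 27 °C after 1 h and -0.30 at 21 °C after 12 h, and 27 °C over 21 °C of 0.06 in ino80 and 0.14 in Col at 1 h and -0.26 and -0.47 at 12 h. Sums that turned without their highest gene at 1 h were H1 in ino80 over Col at 27 °C (0.02) and in ino80 in warmth (-0.04), H2B in warmth in ino80 (-0.00) and Col (-0.02) and H3.3 in warmth in ino80 (0.05), and at 12 h H3.3 in ino80 over Col at 21 °C (-0.01). The H3.3 share of H3.1 and H3.3 changed by -1.42 points in warmth in ino80 at 1 h. Without AT4G40030 and AT5G65360, the highest gene of each class, the change was 1.59 points. In the 250 bases before the start alone, 10 histone loci had the octamer and 11 the hexamer. TPM keeps no depth, so the counting error of weak genes such as HTA4 and HTR12 is unknown.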
